A study of Mus musculus with 4 samples.

Results

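The nuclear genes for the subunits of the mitochondrial respiratory chain and ATP synthase were followed in 4T1 cells, an epithelial mouse mammary carcinoma cell line. Members were the protein-coding genes whose symbol marks a subunit of complex I (Nduf followed by a, b, c, s or v and a digit), complex II (Sdha to Sdhd), complex III (Uqcr), complex IV (Cox5 to Cox8 with a letter a to c) or complex V (Atp5). Assembly factors named as such (Ndufaf, Sdhaf and Uqcc) and pseudogenes were left out. Of the 21840 genes in the table, 79 were members: 37 of complex I, 4 of complex II, 8 of complex III, 13 of complex IV and 17 of complex V. They lie on 19 chromosomes. The symbols miss a few subunits with other names, among them Ndufab1, Cyc1, Cox4i1 and Cox4i2, which are given separately. They also place Ndufa4 under complex I, although its protein is known today as a subunit of complex IV.

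RNA sequencing had been done on wild-type 4T1 cultures that received phosphate-buffered saline (PBS) or recombinant interleukin-17A (rIL17), a cytokine that acts on epithelial cells. The labels give neither dose nor time. Each group had 2 libraries, numbered 1 and 2, whose values summed to between 17413365 and 18005398. The labels do not say whether libraries 1 and 2 were grown separately, and the p-values therefore reflect a spread that may be technical only. Values are called normalized counts, since in each library they are whole multiples of 1 step, as read counts divided by 1 factor would be. Taken as such, each library held 17511450 to 17970104 reads assigned to genes, a depth inferred from the step.

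Respiratory complexes I and II pass electrons from NADH and succinate to coenzyme Q, complex III passes them on to cytochrome c, and complex IV passes them to oxygen. Complexes I, III and IV pump protons across the inner mitochondrial membrane, and complex V uses the proton gradient to make ATP. Most subunits are encoded in the nucleus and imported, while a small set, including the membrane core of complexes I, III and IV, is encoded in mitochondrial DNA. The nuclear genes are known to be driven in common by the transcription factors NRF1, GABP (an ETS factor), YY1 and the estrogen-related receptors.

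Promoters of 66 of the 79 members were found by gene ID in RefSeq (GRCm38.p6), each as 300 bases from 250 before to 50 after the annotated start. Searched on both strands, the NRF1 motif (GCGC, then A and 1 free base, then GCGC) was present in 16 of the 66 (24.2%). It was in 9.53% of the promoters of 11438 genes of the table. The shares were 22.7% against 17.0% for CCGGAAG (ETS) and 22.7% against 8.32% for AANATGGC (YY1). TCAAGGTCA (estrogen-related receptors) was in 2 members (3.03% against 0.289%). At least 1 of the 4 motifs was present in 40 members (60.6%), against 30.5% of all promoters. The YY1 letters were in 11 of 32 complex I promoters and in 1 of 11 of complex IV. Median promoter GC content was 57.3% in the members and 60.3% in all. A match describes these letters in this window and is not evidence of binding. The 3 promoters below are shown because each holds 2 or more kinds of motif, and they belong to genes whose values follow. Capitals mark the motif letters, which read in reverse complement where the motif lies on the other strand. Ndufs6 (chr13:73328433-73328732, minus strand) holds NRF1 and YY1 letters, Sdhd (chr9:50603800-50604099, minus strand) holds NRF1, ETS and estrogen-related receptor letters, and Cox6a1 (chr5:115348909-115349208, minus strand) holds NRF1 letters at 2 places and ETS letters.
Ndufs6: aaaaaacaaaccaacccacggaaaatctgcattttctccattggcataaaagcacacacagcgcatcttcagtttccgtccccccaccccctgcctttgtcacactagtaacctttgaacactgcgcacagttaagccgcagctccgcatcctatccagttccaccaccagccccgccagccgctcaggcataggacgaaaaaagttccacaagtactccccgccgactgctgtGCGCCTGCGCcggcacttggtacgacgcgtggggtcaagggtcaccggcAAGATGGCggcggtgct
Sdhd: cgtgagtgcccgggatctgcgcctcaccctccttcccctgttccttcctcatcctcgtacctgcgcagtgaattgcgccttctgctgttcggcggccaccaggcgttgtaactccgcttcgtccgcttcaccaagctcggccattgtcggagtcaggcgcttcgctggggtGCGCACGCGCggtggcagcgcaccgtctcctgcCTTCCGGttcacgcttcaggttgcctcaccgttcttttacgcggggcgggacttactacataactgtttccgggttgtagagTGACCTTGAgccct
Cox6a1: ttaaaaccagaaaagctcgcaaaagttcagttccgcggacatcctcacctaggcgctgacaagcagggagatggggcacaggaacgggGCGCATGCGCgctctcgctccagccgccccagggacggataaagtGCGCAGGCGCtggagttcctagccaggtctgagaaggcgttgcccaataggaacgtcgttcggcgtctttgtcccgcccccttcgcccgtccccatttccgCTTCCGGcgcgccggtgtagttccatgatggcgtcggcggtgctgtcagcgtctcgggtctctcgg

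The cultures carried the keratins of simple epithelium. Krt8 had 29749 and 32665 normalized counts in PBS against 25498 and 26467 in rIL17, and Krt18 had 19346 and 20159 against 15966 and 16720. Krt7 (2816 and 3146 against 2484 and 2611) and Cdh1 (208 and 180 against 144 and 139) were lower in both rIL17 libraries as well, and Epcam overlapped at 76.6 to 135. Of the leukocyte markers, Ptprc had 3.02 and 2.01 counts in rIL17 and 0 in PBS 1 and PBS 2, and Lyz2 did not exceed 11.1. The endothelial gene Pecam1 was at 4.91 to 7.02 in all 4 libraries. Of the fibroblast markers, Col1a2 did not exceed 2.01. Col1a1 had 51.0 and 37.8 in PBS against 29.1 and 30.1 in rIL17, and Pdgfrb had 36.3 and 33.8 against 24.1 and 26.1. Both were lower in both rIL17 libraries, whereas Pdgfra was higher, with 2328 and 2462 in PBS against 2855 and 2862 in rIL17. The part of these marker differences in the subunit values was not tested. In RNA from a whole culture, fewer expressing cells and less RNA per cell cannot be told apart. Among the subunit genes PBS library 2 stood apart from the other 3 libraries, and the values without it, or with a correction for transcript GC content, stand beside many of those that move with either.

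As a group the subunit genes were among the abundant transcripts of 4T1 cells, and took between 1.00% and 1.14% of all normalized counts. Expressed per kilobase of exon, the median tested subunit had 964 counts, against 93.6 for all tested protein-coding genes, and 61 of the 79 members were at or above percentile 90 of all genes. The median over tested members was 687 for complex I, 1037 for complex II, 1318 for complex III, 1840 for complex IV and 1514 for complex V. The highest per kilobase were Cox8a at 9356 and Cox6a1 at 7184, small subunits at the rim of complex IV, and Atp5b at 6466 and Atp5a1 at 4833, the catalytic and structural chains of the F1 head of complex V. In complex I, Ndufb9 (3165), an accessory subunit of the membrane arm, had the highest level. In complex II the membrane anchor Sdhd (1681) was highest and the flavoprotein Sdha (862) lowest, and in complex III Uqcr10 (2771) and Uqcrb (854). Exon lengths are summed over all annotated exons of a gene, so a gene with a long or rarely used annotated exon has a lower value per kilobase. Ndufb2, at 19.8, also shares 145 exon bases with another gene model on the same strand.

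**Figure D1:**
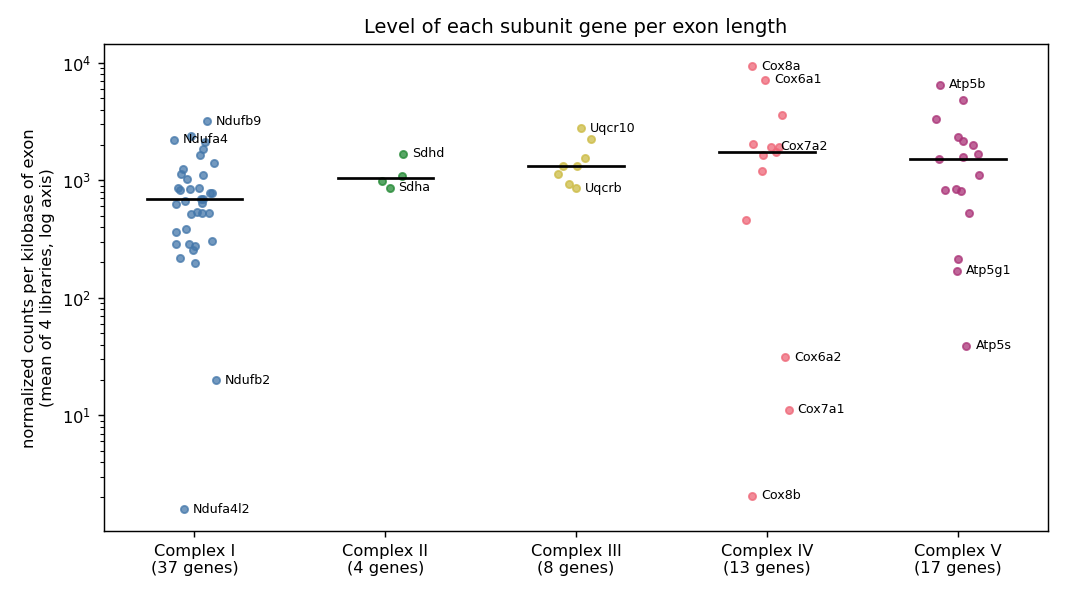
Level of each member, as normalized counts per kilobase of exon (mean of 4 libraries, log axis), by complex; black bars mark the median of the plotted genes. Most members lie above 100, and Ndufa4l2, Ndufb2, Cox8b, Cox7a1, Cox6a2 and Atp5s lie apart at the bottom.

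Several subunits exist as isoforms that are known to differ between tissues, and 4T1 cells held mainly 1 form of each pair. The ubiquitous Cox6a1 had a level per kilobase 230 times that of Cox6a2 (31.2), the form of heart and skeletal muscle. Cox6a2 had 17.7 and 16.9 normalized counts in PBS against 28.1 and 22.1 in rIL17. Both rIL17 values lie above both PBS values, but the log2 fold change of 0.50, fitted with limma on log2(normalized count + 1), had a 95% confidence interval of -0.22 to 1.22. Cox7a1, the muscle form, was at 1.96 and 8.95 in PBS against 7.04 and 6.02 in rIL17, while Cox7a2 had 1935 counts per kilobase. Cox8b, likewise a muscle form, was at 0.98 and 0.99 in PBS and at 1.01 and 0 in rIL17, which is under the limit for testing. Cox4i1, outside the symbol rule, had 5794, 6956, 5856 and 6048 normalized counts in PBS 1, PBS 2, rIL17 1 and rIL17 2, and its hypoxia-linked counterpart Cox4i2 had at most 2.94. Ndufa4l2, the hypoxia-induced relative of Ndufa4, had 1.96 and 2.98 in PBS against 1.01 and 1.00 in rIL17, too few for a fold, where Ndufa4 had 2899 to 3300. Cox7a2l, known as a factor that joins complexes III and IV into supercomplexes, reached 1925 counts per kilobase, close to Cox7a2. The 3 genes Atp5g1, Atp5g2 and Atp5g3 encode the same mature c subunit of the ATP synthase ring, and per kilobase they stood at 170, 2157 and 2323. Their annotated exons sum to 4912, 1675 and 2181 bases, which widens this gap. In normalized counts they had 748 to 993, 3462 to 3928 and 4896 to 5268. The counts of Atp5g1 are also uncertain because of a near-identical copy described below.

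No subunit was called different between rIL17 and PBS. Of the 79 members, 78 passed the filter (a group mean of 1 normalized count or more) and were tested with limma on log2(normalized count + 1), with Benjamini-Hochberg adjustment over 20677 genes. At an adjusted p below 0.05, 0 of 78 were called, where 0.0% of all tested genes were. With a stricter filter that kept 12515 genes and 76 members, 0 of 76 were called against 0.807% of genes. At an unadjusted p below 0.05 there were 5 members (6.41%), against 12.8% of all tested genes. limma-voom also called 0 subunits. Among the 15 tested genes of the isoform families 0 were called too, with 0 at an unadjusted p below 0.05. Their median log2 fold change was -0.07, or 0.01 without PBS 2. Intervals were narrow for most. In 65 of the 76 the 95% confidence interval stayed within a 1.5-fold difference in either direction (log2 0.58), which was so for 85.5% of these members and 65.4% of genes under the same filter.

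Most subunits nonetheless lay slightly lower in rIL17. The log2 fold change was below 0 in 60 of 78, and its median was -0.07, against 0.01 over all tested genes. With upper-quartile and total-count scaling it was -0.09 and -0.10, against -0.02 and -0.03 over all genes. By complex the medians were -0.08, -0.03, -0.09, -0.06 and -0.05 for I to V. In 22 of 78 members both rIL17 values were below both PBS values (28.2%), against 20.0% of all tested genes, and in 5 they were above both (6.41%), against 25.4%. Under the stricter filter the shares were 27.6% of members against 25.4% of genes below, and 6.58% against 25.8% above. The share below is near the background, while the share above is under it. All of these figures lean on PBS library 2, as the values of the single libraries show.

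In PBS 1, PBS 2, rIL17 1 and rIL17 2 the 79 genes summed to 182609, 197809, 180918 and 181243 normalized counts. PBS 2 was the high one, and PBS 1 lay close to both rIL17 libraries. PBS 2 was the highest in each complex too. PBS 1 was above both rIL17 libraries in complexes II, III and V (80078, 84665, 78757 and 78589 for V). It was the lowest in complex I (43892, 49072, 44271 and 44170) and lay between the rIL17 libraries in complex IV (29572, 33051, 29359 and 29689). PBS 2 was the highest of the 4 libraries in 57 of the 76 members under the stricter filter, or 75.0%, against 34.4% of all genes there. It was the lowest in 8 (10.5% against 34.3%). In 57 of 76 members the gap between the PBS libraries was larger than the difference between the groups (75.0% against 53.2% of genes). Without PBS 2 the median log2 fold change of the subunits was 0.01, and 0.00, 0.01, -0.01, 0.02 and 0.04 in complexes I to V. Without PBS 1 it was -0.14. Leaving out PBS 1 moves the value of each gene as far the other way as leaving out PBS 2. For a single gene, a value without PBS 2 therefore does not show which PBS library is unusual. Without PBS 2, both rIL17 values were below PBS 1 in 24 members (30.8%, against 33.4% of all genes tested that way) and above it in 26 (33.3% against 37.5%). Without PBS 1, they were below PBS 2 in 60 members (76.9% against 36.5%) and above it in 8 (10.3% against 39.9%).

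**Figure D2:**
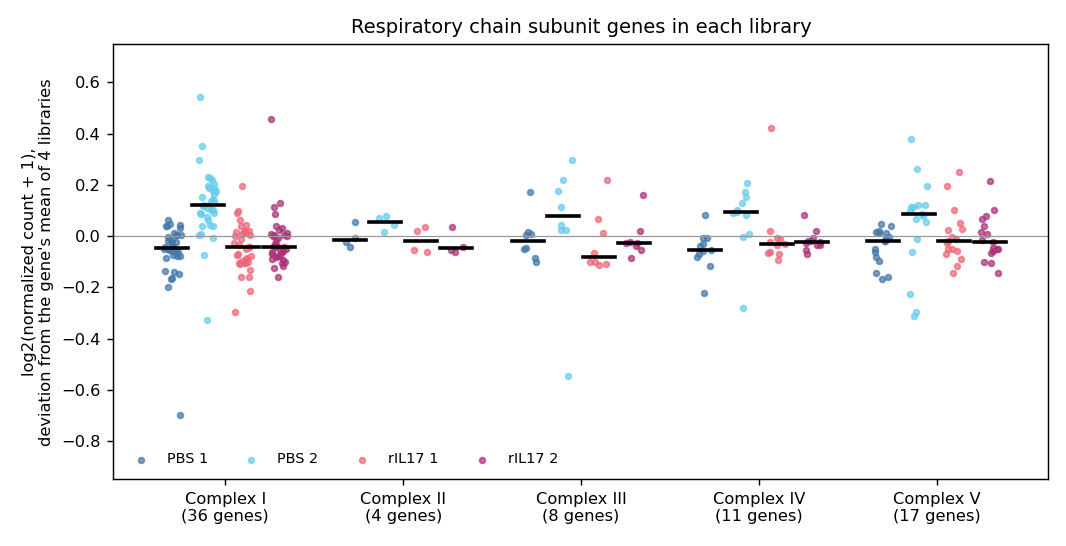
Each point is 1 subunit gene in 1 library, as the deviation of log2(normalized count + 1) from the mean of the 4 libraries for that gene, with black bars at the median per complex and library. PBS 2 has the highest median in all 5 complexes (0.10 over all 76 genes), and the other 3 libraries have medians of -0.03 to -0.04 over all 76.

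The offset of PBS 2 was larger in GC-rich transcripts. Split into 3 classes by transcript GC content, the members had a median PBS 2 minus PBS 1 difference, in log2, of 0.05 in the lowest class (26 genes, 38.4 to 49.0% GC), 0.13 in the middle (25 genes) and 0.20 in the highest (25 genes, 53.8 to 63.3%). The median log2 fold change between groups was -0.02, -0.07 and -0.10 in the same classes, and 0.02, 0.01 and -0.01 without PBS 2. Over the 76 genes, GC content and the difference between the PBS libraries had a Pearson correlation of 0.28 and a Spearman correlation of 0.32. GC content and the group difference had -0.38 and -0.44. These are descriptions across genes of the same libraries, and genes are not independent replicates. With a GC correction the median of the subunits was -0.06, against -0.02 over all genes, and still 0 were called. The part of GC content or of PBS 2 in the group difference was not tested.

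**Figure D3:**
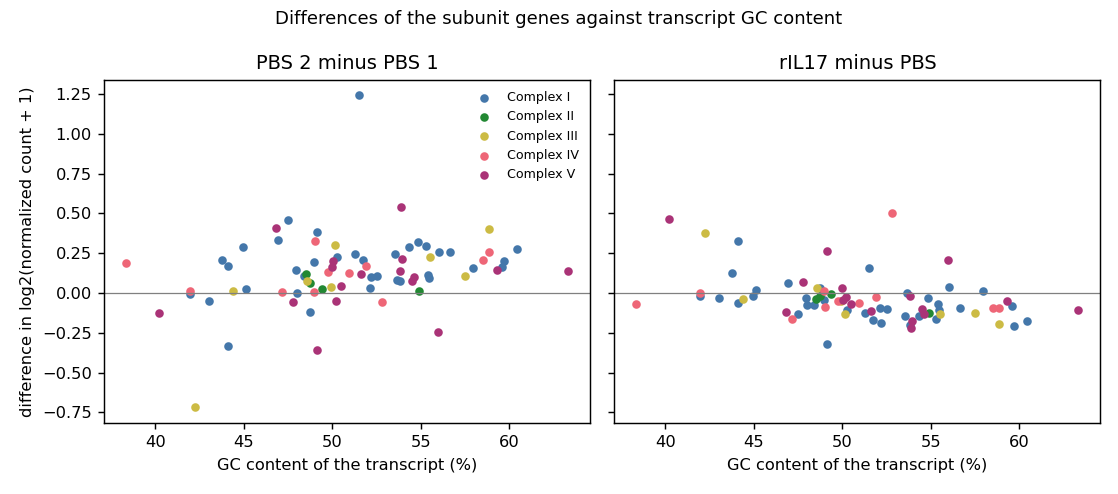
Transcript GC content (x axis, percent) against the difference in log2(normalized count + 1) for the 76 subunit genes, between the PBS libraries (left) and between the groups (right), coloured by complex. Points drift upward with GC content on the left and downward on the right.

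Complex I takes up electrons from NADH through a peripheral arm and pumps protons in a membrane arm. Of its 37 members, 0 were called, and the log2 fold change was below 0 in 29. Among the 7 nuclear core subunits, which carry the flavin and the iron-sulfur clusters, 6 were below 0, and the median was -0.03, or 0.03 without PBS 2. Ndufs3 (mm10, chr2:90894634-90904827, minus strand), a core subunit of the peripheral arm, had 1413 and 1489 normalized counts in PBS against 1276 and 1247 in rIL17. The groups do not overlap, and both rIL17 values are low. Its log2 fold change was -0.20 (SE 0.05, limma adjusted p = 0.373, and 0.239 with the stricter filter), and -0.16 without PBS 2. Ndufv1, which binds NADH and flavin, had 1705, 2036, 1883 and 1612 in PBS 1, PBS 2, rIL17 1 and rIL17 2, so the groups overlap. Ndufs1, the largest subunit, had 2016, 2055, 2079 and 2055, all within a narrow range (log2 fold change 0.02, interval -0.10 to 0.14, and -0.08 with the GC correction).

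The accessory subunits of complex I varied more among libraries. Ndufb4 (chr16:37647170-37654453, minus strand), of the membrane arm, had 566 and 607 in PBS against 509 and 519 in rIL17 (log2 fold change -0.19, SE 0.06, limma adjusted p = 0.386). Ndufb7, of the intermembrane-space side, had 888 and 1020 against 793 and 860. Ndufs6, a zinc-binding subunit whose promoter is printed above, had 674 and 881 in PBS against 594 and 641 in rIL17. None of the 3 overlaps between groups. For Ndufs6 the gap between the PBS libraries is wide, and the log2 fold change of -0.32 came to -0.13 without PBS 2. Ndufc1, a small membrane-arm subunit, lay on the other side, with 566 and 449 in PBS against 647 and 618 in rIL17 (0.33, SE 0.14, limma adjusted p = 0.435). PBS 2 is the low value, and the log2 fold change was 0.16 without it and 0.18 with the GC correction. Ndufc1 was the 1 member of complex I with both rIL17 libraries above both PBS libraries (2.7%, against 25.4% of all tested genes), and 12 were below (32.4%, against 20.0%).

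Complex II, which is also the succinate dehydrogenase of the citric acid cycle, has all 4 subunits encoded in the nucleus. Sdhb (chr4:140961203-140979193, plus strand), the iron-sulfur subunit, had 2514 and 2541 normalized counts in PBS against 2314 and 2313 in rIL17. Replicates agreed closely and the groups do not overlap, with a log2 fold change of -0.13 (SE 0.04, limma adjusted p = 0.373, and 0.351 with the stricter filter), or -0.08 with the GC correction. Sdha, the catalytic flavoprotein, had 3455 and 3749 in PBS against 3600 and 3423 in rIL17. The membrane anchors Sdhc (3174 and 3317 against 3104 and 3303) and Sdhd (2057 and 2090 against 2121 and 2009) overlapped between groups as well. The 4 intervals all lay between -0.24 and 0.15 on the log2 scale.

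Complex III passes electrons through cytochrome b, cytochrome c1 and the Rieske protein. Of its 8 members, 2 lay below in both rIL17 libraries (25.0%, near the 20.0% of all tested genes), namely the core proteins Uqcrc1 and Uqcrc2, and 0 lay above (against 25.4%). Uqcrc1 had 6436 and 6928 in PBS against 5967 and 6287 in rIL17 (log2 fold change -0.12, SE 0.06, limma adjusted p = 0.477, and -0.07 without PBS 2). Uqcrfs1, the Rieske iron-sulfur protein, had 1724 and 1814 against 1873 and 1738, with overlap. The widest spread was in Uqcrb, a small subunit near the quinone site, at 823 and 500 in PBS against 851 and 817 in rIL17. PBS 2 is the single low value, and the log2 fold change of 0.38 was 0.02 without it and 0.11 with the GC correction. Uqcr11, the smallest subunit, showed the mirror image, at 1331 and 1756 against 1322 and 1348, with -0.20 and 0.00 without PBS 2. Uqcrb has a transcript GC content of 42.2% and Uqcr11 one of 58.9%.

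Complex IV reduces oxygen, and its nuclear subunits surround a core made in the mitochondrion. Cox6c (chr15:35925886-35938246, minus strand), one of these surrounding subunits, had the smallest p of all members. It had 4540 and 4551 normalized counts in PBS (mean 4546 ± 8.22, SD, n = 2) and 4025 and 4085 in rIL17 (4055 ± 42.3). The replicates are tight and both rIL17 values are low. The log2 fold change was -0.16 (SE 0.04, interval -0.27 to -0.06), with a limma adjusted p of 0.373, or 0.232 with the stricter filter, and it was -0.16 without PBS 2 as well. Cox6c was the 1 member of complex IV with both rIL17 libraries below both PBS libraries (8.33% of 12 tested, against 20.0% of all genes). Cox8a had 5562, 6426, 5533 and 5644, and Cox6a1 had 4754, 5672, 4805 and 4942, in the order PBS 1, PBS 2, rIL17 1 and rIL17 2, so PBS 2 alone is high in both. Cox5a (954, 957, 954 and 971) and Cox7b (1971, 1991, 2006 and 1949) were nearly level across the 4 libraries. Cox7b, with a GC content of 42.0%, nonetheless had a log2 fold change of 0.00 as deposited and -0.29 with the GC correction. For Cox7c, with a GC content of 38.36%, the same values were -0.07 and -0.725.

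Complex V couples a proton-driven ring and stalk to the F1 head that makes ATP. Atp5b, the catalytic beta subunit and the most abundant member by counts, had 27286 and 29625 in PBS against 26387 and 26280 in rIL17. Its log2 fold change was -0.11 (SE 0.06, limma adjusted p = 0.504), and it was -0.05 without PBS 2 and -0.17 without PBS 1. Atp5a1, the alpha subunit, had 15280 and 16081 against 14634 and 14605. In both, the rIL17 values lie below both PBS values, and for Atp5b the group difference is smaller than the gap between the PBS libraries. All 5 genes of the F1 part were below 0, with a median of -0.10, or -0.05 without PBS 2. Atp5c1, the central stalk, was nearly level at 6514, 6280, 6320 and 6235. Atp5k, a small membrane subunit, had 863, 1256, 891 and 901, and its log2 fold change of -0.22 was 0.05 without PBS 2.

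Of the 17 complex V members, 6 had both rIL17 values below both PBS values (35.3%, against 20.0% of all tested genes). The 3 with both rIL17 values above both PBS values (17.6% of 17, against 25.4% of all tested genes) were Atp5f1, Atp5j and Atp5s. Atp5s (chr12:69724950-69744660, plus strand), a coupling factor also named Dmac2l and known as a factor in assembly, had 69.7 and 63.6 in PBS against 93.5 and 91.3 in rIL17. Its log2 fold change of 0.47 (SE 0.13, interval 0.09 to 0.84) had a limma adjusted p of 0.373, or 0.277 with the stricter filter, and was 0.40 without PBS 2. With the GC correction it was 0.01, and -0.04 with both that and the stricter filter; its transcript has a GC content of 40.2%. Atp5f1, the b subunit of the peripheral stalk, had 3528 and 2752 in PBS against 3914 and 3575 in rIL17, where PBS 2 is low (0.26, and 0.08 without PBS 2). Atp5j, coupling factor 6 of the same stalk, had 1678 and 1415 against 1779 and 1778 (0.21, and 0.08 without PBS 2).

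**Figure D4:**
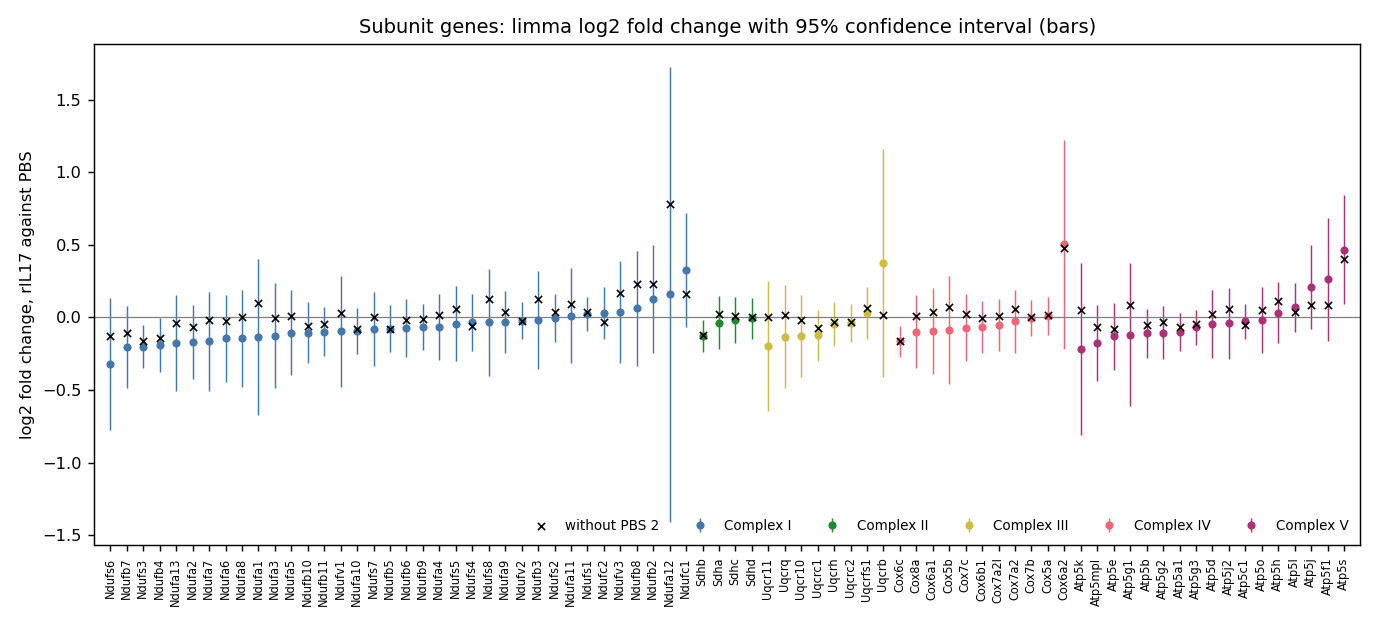
limma log2 fold change (rIL17 against PBS) of the 76 subunit genes under the stricter filter, ordered within each complex, with 95% confidence intervals as bars; crosses give the value without PBS 2. Most crosses lie nearer to 0 than the points, Ndufa12 has the widest interval (-1.41 to 1.73), and the intervals of Ndufs3, Ndufb4, Sdhb, Cox6c and Atp5s do not reach 0.

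Some of these genes share sequence with neighbours. Exons of 25 members overlap exons of a gene on the opposite strand. The strand setting of the counting is not given in the sources used here, so how reads in such overlaps were counted is not known. Atp5f1 shares 337 exon bases with Wdr77, which had 896 and 457 normalized counts in PBS against 843 and 819 in rIL17. PBS 2 is the low library in both genes. Atp5j shares 397 exon bases with Gabpa, the gene of a GABP chain, and Gabpa had 1246 and 1121 in PBS against 1639 and 1411 in rIL17. Both genes of that pair had both rIL17 values above both PBS values. The part of the overlaps in these values was not tested.

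Many subunit genes have copies elsewhere in the genome, mostly processed pseudogenes. Compared with all annotated transcripts, 22 members had 44 copies in the sense direction with at least 95% identity over at least 100 bases. Matches to genes other than pseudogenes were counted from 200 bases only. Of the 44 copies, 42 were annotated as pseudogenes, and 30 had rows in the table. For 2 members the copies took more than the gene. Gm10039 (chr11:100361716-100362126, minus strand) matches Atp5g1 over 411 bases at 99.8% identity, with 1 mismatch, and took 62.0% of their joint counts. Gm15920 (chr5:130188395-130188796, plus strand) matches Ndufa12 over 402 bases at 99.5% identity, with 2 mismatches, and took 52.5%. Stretches of 41 bases of coding sequence, from the transcripts of GENCODE M21, show how little separates gene and copy. The capital marks the differing base, and the stretches are positions 205 to 245 of the Ndufa12 transcript and 417 to 457 of the Atp5g1 transcript.
Ndufa12: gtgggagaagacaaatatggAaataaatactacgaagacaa
Gm15920: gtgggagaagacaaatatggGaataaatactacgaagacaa
Atp5g1: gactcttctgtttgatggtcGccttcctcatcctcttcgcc
Gm10039: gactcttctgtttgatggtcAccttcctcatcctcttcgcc

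Reads that fall between the mismatches fit gene and copy alike, so the counts of both genes are uncertain. Ndufa12, an accessory subunit of complex I, had 331 and 784 normalized counts in PBS against 437 and 738 in rIL17, the widest replicate gap of any member under the stricter filter. Library 2 is high and library 1 low in both groups. Gm15920 had 702 and 706 in PBS against 603 and 525 in rIL17. The log2 fold change of Ndufa12 was 0.16 (SE 0.54), 0.78 without PBS 2, and -0.11 when gene and copy were summed. Atp5g1 had 750 and 993 in PBS against 843 and 748 in rIL17, and Gm10039 had 1355 and 1559 against 1192 and 1339. Here the log2 difference was -0.12 for the gene (0.08 without PBS 2, -0.32 without PBS 1) and -0.17 for the sum. Copies took 22.1% for Atp5l, 14.6% for Cox7c, 11.8% for Atp5h and 10.7% for Cox5b. For the other 14 members with counted copies the share was at most 5.74%, and Cox6c, with 0.0577%, was little touched.

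**Figure D5:**
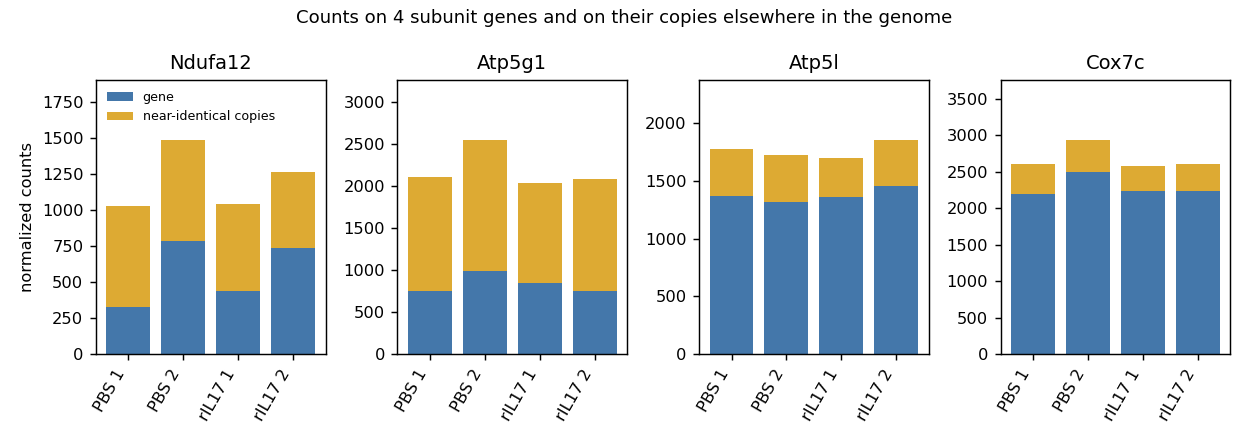
Normalized counts on 4 subunit genes (blue) and on their near-identical copies elsewhere in the genome (yellow), stacked, in each library; each panel has its own axis from 0. Copies exceed the gene in all 4 libraries for Atp5g1, and in PBS 1 and rIL17 1 for Ndufa12.

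Of the 4 subunits outside the symbol rule 0 were called, and their median log2 fold change was -0.08, or -0.01 without PBS 2. Cyc1, cytochrome c1 of complex III, had 2843 and 3158 in PBS against 2793 and 2925 in rIL17. Ndufab1, the mitochondrial acyl carrier protein that is part of complex I, had 1114 and 1132 against 1084 and 1086.

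Genes around the chain were described from lists of assembly factors, regulators and neighbouring pathways, and limma called 0 in each over all genes tested. At an unadjusted p below 0.05, 1578 of all 20677 tested genes were higher and 1064 lower, together 12.8%. Of the 53 tested assembly factors, 2 were higher at that level and 1 was lower. Atp5s, which is also a member, is 1 of those 2, and without it 52 genes and 1 higher gene remain. The median log2 fold change of the 53 was -0.03, or 0.00 without PBS 2. Sdhaf3, which helps to insert iron-sulfur clusters into Sdhb, had 54.0 and 49.7 normalized counts in PBS against 85.4 and 82.2 in rIL17. Its log2 fold change was 0.68 (SE 0.14, limma adjusted p = 0.373, and 0.178 with the stricter filter), and it was 0.20 with the GC correction. Uqcc1, an assembly factor of complex III, had 612 and 611 against 553 and 540.

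Regulators of mitochondrial biogenesis had a median of 0.03 over 14 tested genes (-0.01 with the GC correction). At an unadjusted p below 0.05, 2 were higher and 1 was lower, where 12.8% of all tested genes lay in either direction. Gabpa had a log2 fold change of 0.36 (SE 0.11, limma adjusted p = 0.373, and 0.169 with the stricter filter), which was 0.02 with the GC correction. Pprc1, a coactivator of the PGC-1 family, had 2099 and 2145 in PBS against 1898 and 1937 in rIL17. Nrf1 had 1009 and 979 against 970 and 929. Tfam, which packs mitochondrial DNA and acts in its transcription, had 1054 and 1007 against 976 and 856. Yy1 had 2660 and 2614 against 3171 and 2787. Esrrg, an estrogen-related receptor gene that also had an unadjusted p below 0.05, had 1.01 and 1.00 counts in rIL17 and 0 in PBS 1 and PBS 2, too few for a fold.

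Among 14 genes of cytochrome c and coenzyme Q synthesis, the median was -0.01 (-0.05 without PBS 2). At an unadjusted p below 0.05, where 12.8% of all tested genes lay in either direction, 0 were higher and 2 lower. Those were Coq5 (685 and 706 in PBS, 610 and 592 in rIL17) and Coq2 (841 and 887, against 755 and 768), both enzymes of coenzyme Q synthesis. Cycs, cytochrome c itself, had 1472 and 1353 against 1394 and 1394, with a log2 fold change of -0.02, or -0.41 with the GC correction. The 20 genes of pyruvate entry and the citric acid cycle had a median of -0.06 (-0.01 without PBS 2), with 1 higher and 0 lower at that level. Dld, the dihydrolipoamide dehydrogenase shared by several dehydrogenase complexes, had 1607 and 1458 in PBS against 2077 and 1841 in rIL17 (0.35, SE 0.09, limma adjusted p = 0.373, and 0.152 with the stricter filter). With the GC correction the value for Dld was -0.06. Of 6 other enzymes that feed electrons to coenzyme Q, Gpd2, the mitochondrial glycerol-3-phosphate dehydrogenase, was the 1 at that level, with 2241 and 1833 against 2666 and 2521.

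The subunits encoded in mitochondrial DNA had other values than the nuclear ones. Over their 13 genes the median log2 fold change was 1.42, against -0.07 for the nuclear members. It was 0.60 with the GC correction and 1.02 without PBS 2, against -0.06 and 0.01 for the nuclear members. In 12 of the 13, both rIL17 values were above both PBS values (92.3%, against 25.4% of all tested genes). In 1 they were below both (7.69% against 20.0%). Their median PBS 2 minus PBS 1 difference was -1.36, whereas it was 0.13 in the 76 nuclear members. mt-Nd1, of complex I, had 8943 and 3997 normalized counts in PBS against 29027 and 25786 in rIL17. Under the stricter filter limma called 2 of the 12 genes that passed it, mt-Nd6 and mt-Nd3, against 0.807% of all genes there. In the main fit 0 of the 13 were called. The PBS values of mt-Nd3 were near the floor, at 0 and 2.98 against 142 and 66.2 in rIL17. The difference between the nuclear and mitochondrial genes was not tested.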

How the data were processed

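RNA-seq of 4 libraries, 2 per group, was analysed. Per the labels' protocols, total RNA was made into libraries with a directional kit. Per the submitters' processing notes, CASAVA, HISAT2 2.0.5, featureCounts 1.5.0-p3 and build mm10 were used; annotation and strand setting: not given in the sources used here. The deposited values are a normalized signal per gene: in each library they are whole multiples of 1 step (within 0.001), as read counts divided by 1 factor per library would be. They were handled as normalized values. Columns were matched to samples by treatment and number.

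Genes with a mean of at least 1 in 1 group were tested with limma 3.58.1 (R 4.3.3, mean-variance trend) on log2(value + 1), with Benjamini-Hochberg adjustment over all of them. The stricter filter asked for 10 in all libraries of 1 group plus a mean of 1 CPM. Fold changes on this scale understate those of low genes. Symbols, exons and transcripts are from GENCODE M21 (21819 of 21840 rows matched), and copies were found with BLAST 2.17.0. Named genes were, per complex, the 4 members with the smallest p, the extremes of level, isoform families and up to 3 genes of each other list. Further genes were chosen after their values were seen: members given for their role, for a library that stood apart, or for copies and overlaps. The fits were tested on simulated data. Members and lists were chosen with earlier results of these data known. Alternatives covered scaling, filter, pseudocount, GC correction, replicate block, limma-voom and each library left out. Deviations from the group mean had a correlation of 0.157 over 12515 genes between libraries with the same number. With 2 libraries per group both pairs give this same value, so it is 1 comparison and cannot tell whether the numbers pair the samples. The main fit did not take them as pairs, and fits with the replicate block are given below.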

Additional observations from a re-analysis of the deposited data

How the results depend on the processing

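The count of called subunits was 0 in all 15 alternatives run, and the smallest limma adjusted p of a subunit was between 0.063 and 0.651 in them. The count over all genes, 0 as reported, was 101 with the stricter filter, 83 with the GC correction, 291 with both, 59 with upper-quartile scaling, 24 with total-count scaling and 1 with limma-voom; the cause was not tested. With the replicate block it was 0 genes and 0 subunits, with the GC correction and block 21, and with the stricter filter and block 1032 (0 subunits, smallest adjusted p = 0.063, for Atp5f1). That last fit called Dld, Gabpa and Gpd2 among the named genes, whose log2 fold changes with the GC correction were -0.056, 0.021 and 0.294. The GC correction changed the sign of 5 of 78 subunits. Leaving out single libraries, the median log2 fold change ran from -0.139 to 0.007 for all subunits, from -0.153 to -0.003 for complex I, from -0.073 to 0.009 for complex II, from -0.126 to -0.006 for complex III, from -0.145 to 0.018 for complex IV and from -0.121 to 0.04 for complex V. Members with rIL17 above PBS and no overlap were then 8 (10.3%) to 26 (33.3%), and below 24 (30.8%) to 60 (76.9%). Fewer libraries have to agree in such counts, and they also differed with the PBS library left out. Without PBS 1, 60 were below and 8 above, against 36.5% and 39.9% of all genes tested that way. Without PBS 2, 24 were below and 26 above, against 33.4% and 37.5%. A lone library in a group is assumed to vary like the other group. Upper-quartile and total-count scaling shifted the median of all genes from 0.014 to -0.021 and -0.028. The planned edgeR test was not run, because the deposited values are normalized. The median of all subunits (-0.067) is about the size of the SD of library medians pooled over both groups (0.071). That spread lies in the PBS group. Under the stricter filter the library medians were -0.039 and 0.1 in PBS 1 and PBS 2, and -0.036 and -0.032 in rIL17 1 and rIL17 2. limma-voom, the combinations with the stricter filter and the sums with copies were chosen after seeing the data.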
